A study of Mus musculus with 4 samples.

Results

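The library made 120 h after the serum switch was compared with the library made 60 h after it, in C2C12 cells, a mouse skeletal myoblast line. All genes that could be named from the assembled transcripts were members, and 10949 of 12762 genes named in the series had a value in both libraries. A further 981 genes had a value at 60 h only and 367 at 120 h only, and these were set apart. The series holds 4 libraries of polyadenylated RNA with 1 library per time point. The first came from cells growing exponentially in high serum, at -24 h, and the others from cells 60 h, 120 h and 168 h after the move to low serum at confluence. All 4 share the cell line, the labels name no added agent or allele, and they give the strain as C57BL/6. C2C12 is a cultured line grown here without nerve cells, and RNA was taken from whole plates, so fused and unfused cells were measured together. The 120 h library was the shallowest, with 24488681 fragments against 48228887 at 60 h, 28513976 in growth and 43845262 at 168 h.

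Myoblasts deprived of serum leave the cell cycle, switch on the myogenic factors and fuse into multinucleated myotubes. Over the following days myotubes assemble sarcomeres, the contractile units, and raise the enzymes that supply them with ATP, while the developmental forms of contractile and receptor subunits give way to those of mature fibres. Cells that neither fuse nor divide, called reserve cells, remain among the myotubes. The comparison addresses what changed between 60 h and 120 h of differentiation.

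Levels are in FPKM, the fragments of a transcript divided by its length in kilobases and by the library's size, and they were read through the introns. Each intron carries the FPKM of all assembled transcripts that hold it, and a gene's level is the median over its introns. Introns held by the same transcripts share a value, so counts of introns higher or lower are not counts of independent measurements. The value after ± is the median distance from that level to the deposited confidence limit, which covers counting and assignment of fragments and no variation between cultures. Ratios are differences of log2(FPKM + 1), 120 h minus 60 h, a scale that understates the change of low genes. A gene rose or fell, in the wording used here, if its ratio was at least 1 in size, its intervals lay apart and the higher of its levels reached 1 FPKM. Positions of genes are the spans of their assembled transcripts as the files give them, on a build that the sources used here do not name. They cannot be set against the promoter positions, which are on another build. There was 1 library on each side, so no test was possible and no p-value is given.

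At 120 h 311 of 10949 genes had risen (2.84%) and 159 had fallen (1.45%). Counts of rises and falls in the gene lists below are to be read beside these shares. The genes that had risen included a fast myosin light chain, the adult acetylcholine receptor subunit, the myogenic factor Myf6 and lipoprotein lipase, and those that had fallen included mitotic and smooth muscle type genes. Most genes differed little, with 95.6% within 2-fold, a median ratio of 0.02 and quartiles of -0.23 and 0.28. The direction of the majority depended on the measure. Higher genes made up 66.2% of calls through the introns, 42.8% after scaling both libraries to equal totals, 27% over the union of exons and 85.1% with FPKM summed over transcripts. Equal totals moved the median of all genes by -0.16 on the log2 scale. Through 3 gene measures and 3 scalings besides the main one, 62 of the 311 genes kept their rise and 51 of the 159 kept their fall, and those are called robust below. This label was harder to reach for rises than for falls. Equal totals, which lowers every ratio, kept 192 of the 311 rises and all 159 falls. Median-ratio scaling hardly moved any value and kept 310 and 159.

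**Figure D1:**
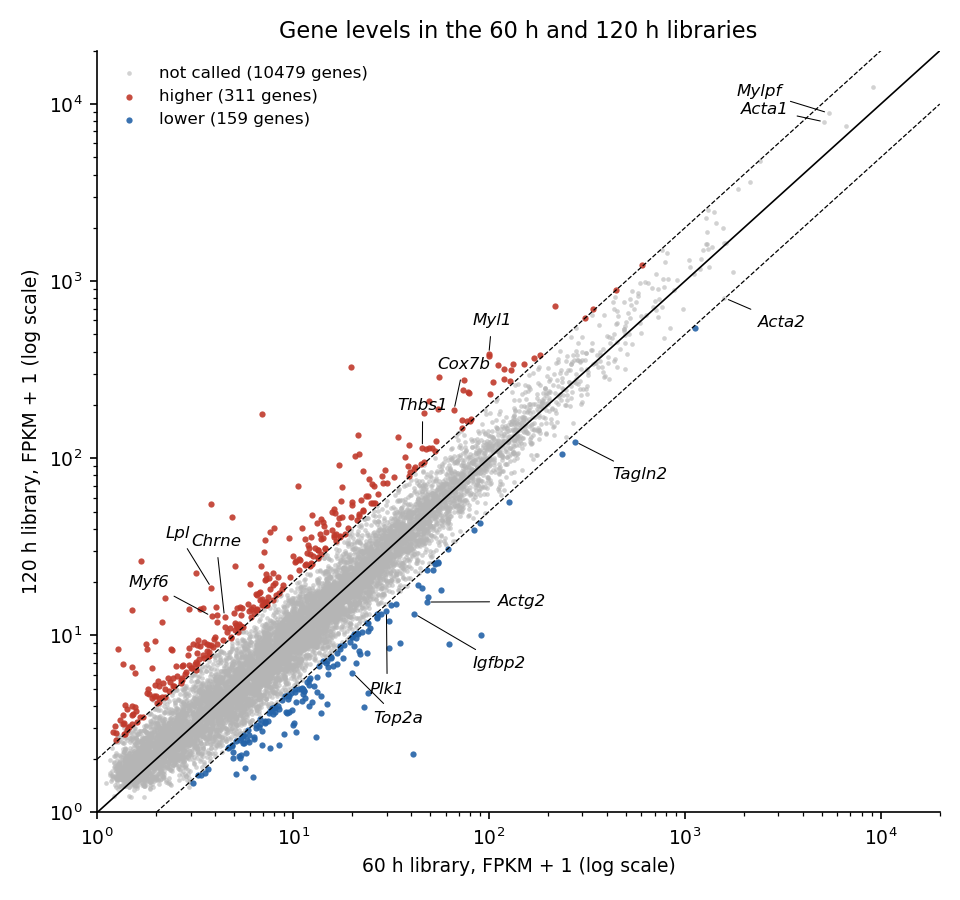
Level of each of the 10949 genes in the 60 h library (x axis) and the 120 h library (y axis), as FPKM + 1 on log scales, with the solid line at equality and the dashed lines at 2-fold. The 311 genes that rose (red) lie at both low and high levels, and Acta1 and Mylpf, among the highest genes, lie above equality but within 2-fold.

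**Figure D2:**
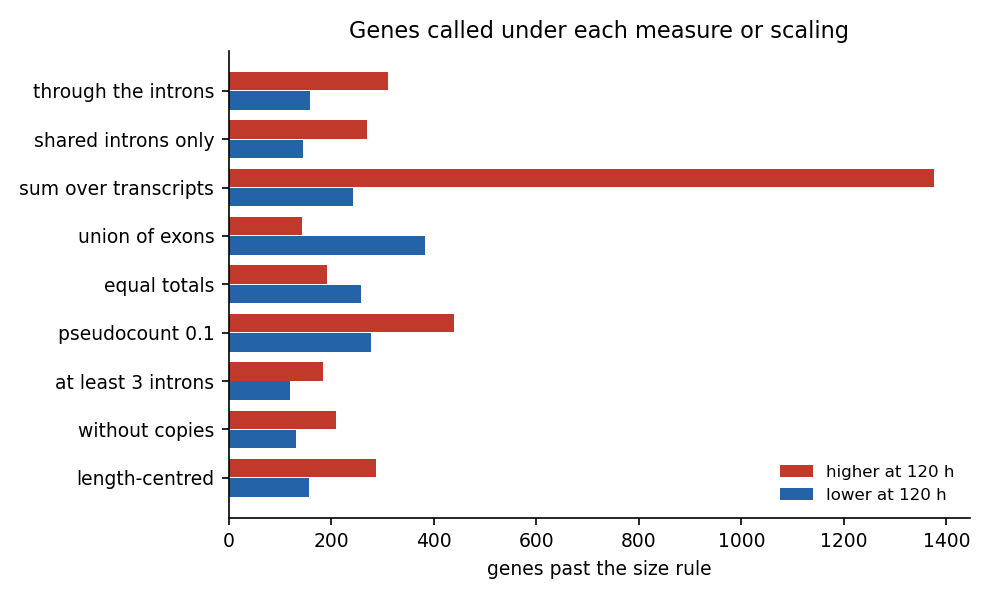
Number of genes past the size rule (x axis) that were higher (red) or lower (blue) at 120 h under 9 measures, filters or scalings. The sum over transcripts gave 1377 higher genes and the union of exons 142, against 311 through the introns.

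Both libraries expressed the skeletal muscle program at high levels. Acta1, the skeletal alpha-actin gene, had 5150.4 ± 16.7 FPKM at 60 h and 7931 ± 30.5 at 120 h. Mylpf, the fast regulatory light chain, had 5412 ± 23.3 and 8897 ± 43.6 FPKM, and Tnnc2, fast troponin C, had 2151 ± 15.3 and 3624 ± 27.4. Des, the muscle intermediate filament, had 1303 ± 12.6 and 1904 ± 10.4 FPKM, Ckm, muscle creatine kinase, 729 ± 5.88 and 899 ± 10.02, and Myog, the myogenin gene, 399 ± 3.08 and 488 ± 6.92. All 6 were higher at 120 h and none passed the size rule.

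Genes of mitosis, the spindle and the kinetochore were lower at 120 h than at 60 h. Of the 53 list members, all with a value in both libraries, 18 fell, 0 rose and 49 had a ratio below 0. The list's median ratio was -0.87, against 0.02 over all genes, and lay between -1.03 and -0.60 over 16 settings. Top2a, the topoisomerase that untangles chromosomes (chromosome 11, 98854269 to 98885502), had 46.1 ± 5.42 FPKM in growth, 19.1 ± 3.01 at 60 h, 5.16 ± 0.774 at 120 h and 1.33 ± 0.355 at 168 h. Its level was thus lower in each later library, and the 60 h and 120 h intervals lay apart (ratio -1.71). Nuf2, a kinetochore subunit that binds microtubules, had 25.6 ± 2.94, 11.5 ± 1.52, 3.22 ± 0.957 and 0.608 ± 0.386 FPKM in the same order, and all 15 of 15 introns assembled in both libraries were lower at 120 h. Aurka, the spindle pole kinase, fell from 32.5 ± 3.04 to 14 ± 1.13 FPKM and had 2.73 ± 0.421 at 168 h. Plk1, a kinase needed from mitotic entry to cytokinesis, fell from 29 ± 1.05 to 12.8 ± 0.982 FPKM and had 1.44 ± 0.478 at 168 h. Kif22, a chromosome-bound kinesin, fell from 18.4 ± 0.852 to 8.19 ± 0.808 FPKM. These 5 falls were robust.

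The other 13 mitotic genes that fell lost the call under at least 1 other measure. Hmmr, a spindle-associated receptor of hyaluronan, fell from 5.24 ± 0.334 to 0.583 ± 0.825 FPKM, which is the largest fall of the list (ratio -1.98) and rests on 1 of 1 intron assembled in both libraries. Spc25, of the same kinetochore complex as Nuf2, fell from 8.84 ± 1.56 to 2.78 ± 0.811 FPKM. Ccna2, cyclin A2, fell from 20.4 ± 0.909 to 9.18 ± 0.979 FPKM, and Mki67, the proliferation marker Ki-67, fell from 4.93 ± 0.722 to 1.74 ± 0.328 FPKM. The remaining 9 were Ndc80, Nusap1, Kif23, Kif2c, Smc2, Smc4, Prc1, Tpx2 and Bub1b, with ratios from -1.19 for Ndc80 to -1.01 for Bub1b. Birc5, the survivin gene, and Cdk1, the kinase of mitotic entry, lay just outside the rule, at 37 and 18.1 FPKM and at 38.7 and 19.98 FPKM at 60 h and 120 h. Not every member was lower. Bub3, a checkpoint protein, had 57.2 ± 1.48 and 73.8 ± 2.98 FPKM, and Ccnb1, cyclin B1, 0.695 ± 0.181 and 1.26 ± 0.802. Summing FPKM over transcripts left 8 falls and gave 2 rises, and the union of exons gave 26 falls. In RNA from a whole dish, fewer dividing cells and less RNA per cell cannot be told apart.

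The promoters of the 5 robust mitotic genes are shown because 4 of them hold short elements that the choice of genes did not use. Sequences are from RefSeq on build GRCm38.p6, from 250 bases before to 50 bases after the start of the gene. They lie at chr11:99024140-99024439 (minus strand) for Top2a, chr2:172370521-172370820 (minus) for Aurka, chr7:122159185-122159484 (plus) for Plk1, chr7:127042371-127042670 (minus) for Kif22 and chr1:169531415-169531714 (minus) for Nuf2. Capitals mark TTTGAA or its reverse complement TTCAAA, the core of the cell cycle homology region known from late cell cycle genes, and CCAAT or its reverse complement ATTGG, the site of the factor NF-Y.
Top2a: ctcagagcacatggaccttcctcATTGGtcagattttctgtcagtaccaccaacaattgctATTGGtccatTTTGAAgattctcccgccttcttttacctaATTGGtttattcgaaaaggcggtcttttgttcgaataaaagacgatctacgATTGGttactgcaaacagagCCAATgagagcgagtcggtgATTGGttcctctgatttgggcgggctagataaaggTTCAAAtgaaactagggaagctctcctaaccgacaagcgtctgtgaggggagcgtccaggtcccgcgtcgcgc
Aurka: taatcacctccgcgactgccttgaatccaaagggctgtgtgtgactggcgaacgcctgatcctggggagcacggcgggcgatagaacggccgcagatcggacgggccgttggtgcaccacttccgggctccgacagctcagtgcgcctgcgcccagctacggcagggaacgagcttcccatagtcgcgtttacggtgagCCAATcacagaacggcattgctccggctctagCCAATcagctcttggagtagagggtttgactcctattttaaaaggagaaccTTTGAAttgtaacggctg
Plk1: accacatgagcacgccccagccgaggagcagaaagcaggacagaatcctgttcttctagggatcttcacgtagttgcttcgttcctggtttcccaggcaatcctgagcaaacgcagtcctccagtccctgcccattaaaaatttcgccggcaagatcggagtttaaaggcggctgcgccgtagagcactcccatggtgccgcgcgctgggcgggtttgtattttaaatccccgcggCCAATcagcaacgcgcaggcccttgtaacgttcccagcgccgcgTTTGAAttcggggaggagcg
Kif22: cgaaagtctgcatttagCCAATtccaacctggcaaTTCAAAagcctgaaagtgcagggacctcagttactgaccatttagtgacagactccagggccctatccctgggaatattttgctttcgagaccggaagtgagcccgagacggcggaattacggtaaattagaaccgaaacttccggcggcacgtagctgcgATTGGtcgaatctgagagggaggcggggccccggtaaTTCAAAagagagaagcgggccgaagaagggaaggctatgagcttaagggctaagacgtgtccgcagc
Nuf2: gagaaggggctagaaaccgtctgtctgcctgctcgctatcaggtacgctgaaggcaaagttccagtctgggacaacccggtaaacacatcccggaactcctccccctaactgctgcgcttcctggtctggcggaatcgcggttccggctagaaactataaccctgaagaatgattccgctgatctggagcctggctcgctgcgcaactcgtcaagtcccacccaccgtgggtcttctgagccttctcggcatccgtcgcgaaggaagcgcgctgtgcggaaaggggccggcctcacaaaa
Both elements were searched on both strands, and no matches overlapped in these promoters. In Top2a TTTGAA began at bases -179 and -23 from the start and in Kif22 at -215 and -17, while in Aurka and Plk1 it began 33 and 31 bases after the start. The Nuf2 window held neither element. Among the mitotic genes that fell, 13 of 15 with a promoter in the table held TTTGAA (86.7%), as did 68.2% of the whole list. The share was 11.4% of 8659 compared genes with a promoter and 18.1% of all 27025 promoters. Over all genes, it was 27.4% of 117 that fell and 10.3% of 242 that rose. Those 117 include the 15 mitotic genes, of which 13 held it, so the 27.4% is not a separate result. CCAAT was in 73.3% of the mitotic genes that fell and 38.9% of compared genes. The DNA replication list, described next, held TTTGAA in 14.3% of its promoters and CCAAT in 65.7%.

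**Figure D3:**
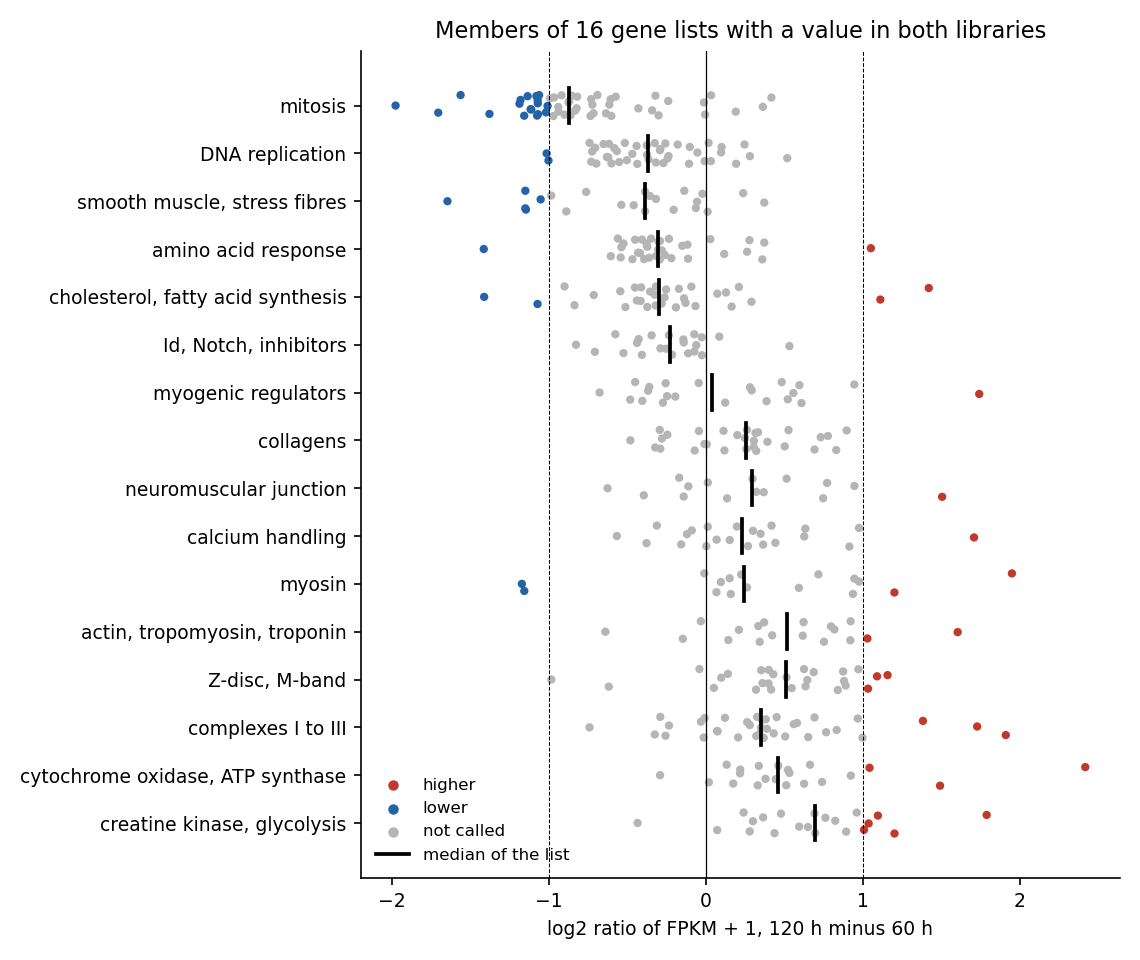
Ratio of each member with a value in both libraries (x axis, log2 of FPKM + 1, 120 h minus 60 h) for 16 gene lists, coloured by whether the gene rose (red), fell (blue) or did not pass the size rule (grey), with black bars at list medians and dashed lines at 2-fold. The mitosis list sits lowest, with a median of -0.87, and the creatine kinase and glycolysis list highest, at 0.69.

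Genes of DNA replication and S phase were also mostly lower, by less. Of 44 members with both values 2 fell and 0 rose, 36 had a ratio below 0 and the median was -0.37 (-0.50 to -0.24 over the settings). Orc6, a subunit of the origin recognition complex, fell from 6.81 ± 0.634 to 2.9 ± 0.582 FPKM, and this was robust. Prim1, the primase that starts each new strand, fell from 5.78 ± 0.561 to 2.36 ± 0.891 FPKM but not by the sum. Mcm3 and Mcm6, helicase subunits, had 18.5 and 19.9 FPKM at 60 h and 10.6 and 11.6 at 120 h, and reached 2.15 and 3.29 at 168 h. Rfc2 and Pold2, a clamp loader and a polymerase subunit, had ratios of 0.10 and 0.28. Of nuclear envelope genes, Lmnb1, the B-type lamin, fell from 21.6 ± 0.794 to 9.43 ± 0.789 FPKM and Tmpo, a lamin-associated protein, fell from 19.5 ± 1.21 to 7.69 ± 1.18 FPKM, although neither by the sum. Lmna, the A-type lamin, had 433 ± 7.12 and 352 ± 9.72 FPKM. Pimreg, a mitotic regulator outside the list, fell from 44.6 ± 2.94 to 17.5 ± 2.54 FPKM, robustly.

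Regulators of cell cycle exit had moved little. Of 20 members 1 fell and 0 rose, with a median of 0.01 that changed sign over the settings. Cdkn1a, the inhibitor p21, had 1276 ± 6.94 FPKM at 60 h and 1628 ± 11.5 at 120 h, compared with 178 ± 4.0 in growth. Ccnd3, the cyclin that stays on in differentiated muscle, had 139 ± 1.95 and 262 ± 4.35 FPKM, and Ccnd1 26.1 ± 0.757 and 17.5 ± 1.6. Cdkn1c, the inhibitor p57, fell from 5.3 ± 0.997 to 1.66 ± 0.823 FPKM, but not by the sum. Mxd3, a Max-binding repressor expressed in proliferating cells, went the other way from the mitotic genes, rising robustly from 6.14 ± 0.64 to 28.7 ± 1.72 FPKM after 16.8 ± 1.41 in growth. It had no value at 168 h.

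Genes typical of smooth muscle and of stress fibres, which unfused myoblasts also express, were lower. Of 22 members with both values, of 26 listed, 5 fell and 0 rose, with a median of -0.39 (-0.57 to -0.37 over the settings). Actg2, smooth muscle gamma-actin (chromosome 6, 83462904 to 83486292), had 251 ± 5.08 FPKM in growth, 47.3 ± 1.7 at 60 h, 14.4 ± 1.34 at 120 h and 3.85 ± 0.517 at 168 h. Every later library was lower. All 8 introns shared by 60 h and 120 h carried the same level within each library. Tagln2 and Tagln, which encode transgelins that bind actin filaments, fell from 274 ± 4.0 to 123 ± 3.72 FPKM (Tagln2) and from 52.2 ± 1.39 to 24.6 ± 1.44 FPKM (Tagln). Cald1, caldesmon, fell from 51 ± 2.44 to 22.4 ± 2.15 FPKM, and Cnn1, calponin, from 5.68 ± 0.567 to 2.02 ± 0.479 FPKM. All 5 falls were robust. Acta2, smooth muscle alpha-actin, lay just short of the rule at 1592 ± 8.11 and 803 ± 8.8 FPKM (ratio -0.99), and Myl9, its light chain partner, had 245 ± 4.14 and 132 ± 4.33. Vim, vimentin, had 1626 ± 8.44 and 1638 ± 12.3 FPKM. The list's summed level was 5938 FPKM at 60 h and 4332 at 120 h. Myocd, the defining activator of smooth muscle genes, had no value in either library.

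**Figure D4:**
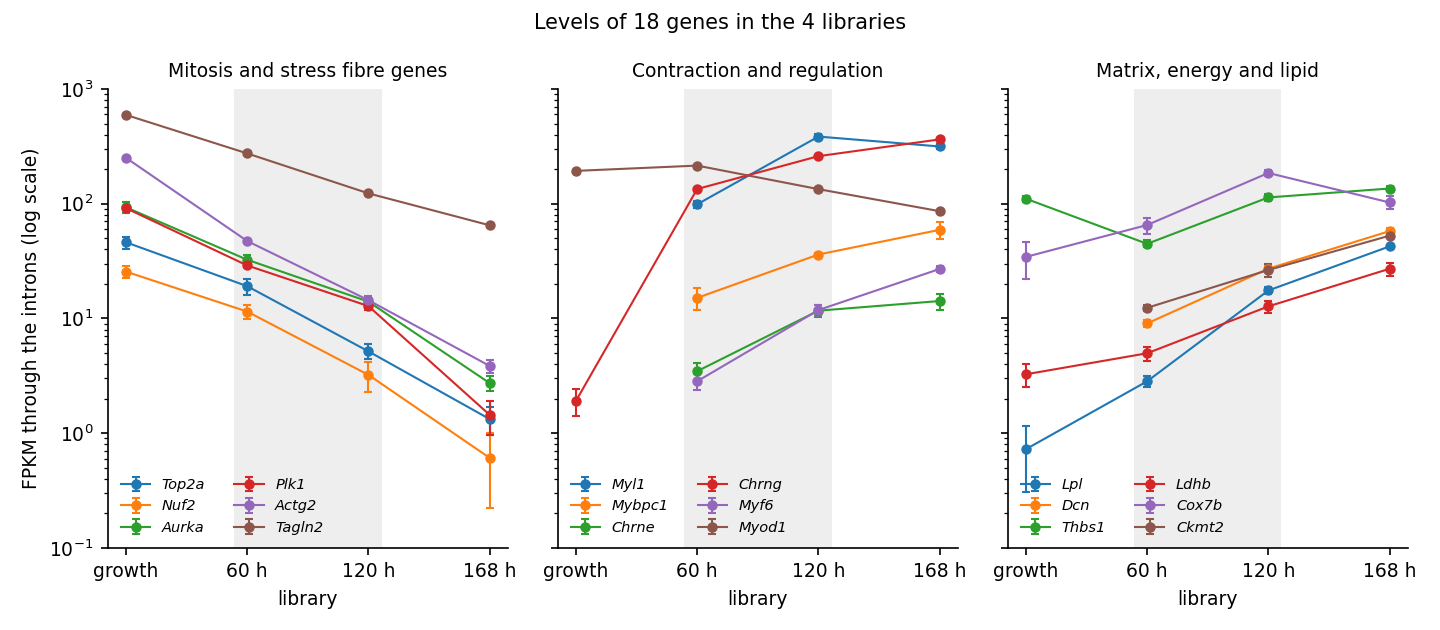
Level of 18 genes (y axis, FPKM through the introns on a log scale, bars showing the distance to the confidence limit) in the 4 libraries in order of time, equally spaced, with the 60 h and 120 h libraries shaded. The mitosis and stress fibre genes on the left were lower in each later library, from 46.1 FPKM in growth to 1.33 at 168 h for Top2a, and genes with no value in a library have no point there.

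The sarcomere genes were mostly higher at 120 h, with few past the rule. Among 18 thin filament genes 15 had a ratio above 0, 2 rose and 0 fell, with a median of 0.52 (0.34 to 0.62 over the settings). Among 27 Z-disc, titin and M-band genes these numbers were 24, 3 and 0, with a median of 0.51 (0.33 to 0.59). Tnni1 and Tnnc1, slow troponins, had 1871 and 1415 FPKM at 60 h and 3301 and 2460.1 at 120 h. Actc1, the actin of embryonic and cardiac muscle, had a lower level at 120 h, 1758 ± 9.51 against 1128 ± 10.7 FPKM. Klhl40, which stabilises nebulin, and Neb, nebulin itself, had ratios of 0.92 and 0.92, with 157 of 164 nebulin introns higher at 120 h. Tpm3, a slow tropomyosin, rose from 37.9 ± 2.28 to 117 ± 7.68 FPKM, but not over the union of exons, and 17.2% of its sampled sequence words of 50 bases occur in other annotated genes. Tnnt2, cardiac type troponin T, rose from 601 ± 10.01 to 1228 ± 15.3 FPKM, a call lost under 4 of the 6 other measures and scalings.

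At the Z-disc, Pdlim3, Myoz1 and Tcap rose. Pdlim3, an alpha-actinin binding protein, rose from 21.7 ± 1.77 to 49.6 ± 3.17 FPKM, Myoz1, which tethers calcineurin, from 5.29 ± 0.552 to 12.4 ± 1.27 FPKM, and Tcap, the titin cap, from 45.7 ± 1.65 to 94.6 ± 3.97 FPKM. None was robust, since all 3 lost the call over the union of exons and at equal totals. Cryab, the chaperone of desmin, had 439 ± 6.11 and 809 ± 13.5 FPKM. Ttn, titin, pointed both ways: its median level was 7.27 ± 1.07 at 60 h and 3.18 ± 0.29 at 120 h, yet 138 of 235 introns assembled in both libraries were higher at 120 h, where the levels of single introns ran from 0.873 to 17.2 FPKM.

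Myosin genes divided. Of 16 with both values 2 rose and 2 fell, and the median was 0.24 (0.06 to 0.26). These were 12.5% each way, against 2.84% and 1.45% of all genes. Myl1, the fast essential light chain (chromosome 1, 66970857 to 66991712), rose from 98.8 ± 6.2 to 385 ± 21.1 FPKM and had 316 ± 16.6 FPKM at 168 h, with 21.4% of its words in other genes. These medians fell on different introns of Myl1. The intron at the 60 h median had 146 FPKM at 120 h, and that at the 120 h median had 74.8 at 60 h. The highest introns went from 157 to 489 FPKM, and another had 82.3 and 83.1. Mybpc1, slow myosin binding protein C (chromosome 10, 87981039 to 88067914), rose from 15.1 ± 3.35 to 36 ± 1.23 FPKM and had 59.2 ± 9.89 FPKM at 168 h. Both rises were robust and neither gene had a value in growth. Myl4, the embryonic light chain, had 1313 ± 7.68 and 2516 ± 19.5 FPKM, and Myh3, the embryonic heavy chain, 597 ± 3.58 and 638 ± 13.1. Myh8, the perinatal heavy chain, fell from 126 ± 8.2 to 55.4 ± 1.89 FPKM, and Myh13, the extraocular heavy chain, fell from 235 ± 9.08 to 105 ± 7.62 FPKM, each with part of its sequence in neighbouring heavy chain genes (21.3% and 8.3% of words) and neither robustly. Myh4, the fastest adult heavy chain, had 15.8 ± 1.52 and 32 ± 1.52 FPKM, Myh1 had a value at 120 h only and Myh2 in neither library.

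At the neuromuscular junction the adult receptor subunit rose. Of 15 members 1 rose (6.67%, against 2.84% of all genes) and 0 fell, with a median of 0.30 (0.13 to 0.37 over the settings). Chrne, the epsilon subunit that replaces gamma in adult muscle (chromosome 11, 70428392 to 70432770), rose robustly from 3.46 ± 0.617 to 11.7 ± 1.37 FPKM, had 14.2 ± 2.27 FPKM at 168 h and no value in growth. Chrng, the fetal gamma subunit, had 1.91 ± 0.506 FPKM in growth, 134 ± 1.68 at 60 h, 259.7 ± 3.91 at 120 h and 364 ± 3.59 at 168 h. Gamma thus stayed far above epsilon in every library in which both had a value, and was itself higher at 120 h without passing the rule (ratio 0.95). Chrna1, the alpha subunit, had 384 ± 3.13 and 646 ± 7.28 FPKM. Rapsn and Dok7, which cluster receptors, had lower levels at 120 h, 121 against 91.9 and 23.7 against 15 FPKM.

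The promoters of Myl1, Mybpc1 and Chrne, the robust rises of the myosin and junction lists, are shown because each held CAGCTG, an E-box of the kind bound by the MyoD family. They are RefSeq sequences on GRCm38.p6, at chr1:66945007-66945306, chr10:88605103-88605402 and chr11:70619145-70619444, all on the minus strand. Capitals mark CAGCTG, which reads the same on both strands, and in Myl1 also TTTATA, the reverse complement of TATAAA.
Myl1: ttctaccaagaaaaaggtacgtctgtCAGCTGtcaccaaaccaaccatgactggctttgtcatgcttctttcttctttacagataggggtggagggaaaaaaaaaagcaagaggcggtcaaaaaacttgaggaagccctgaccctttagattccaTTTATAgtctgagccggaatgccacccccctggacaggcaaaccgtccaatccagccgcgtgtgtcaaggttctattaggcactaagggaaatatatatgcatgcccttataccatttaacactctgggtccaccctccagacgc
Mybpc1: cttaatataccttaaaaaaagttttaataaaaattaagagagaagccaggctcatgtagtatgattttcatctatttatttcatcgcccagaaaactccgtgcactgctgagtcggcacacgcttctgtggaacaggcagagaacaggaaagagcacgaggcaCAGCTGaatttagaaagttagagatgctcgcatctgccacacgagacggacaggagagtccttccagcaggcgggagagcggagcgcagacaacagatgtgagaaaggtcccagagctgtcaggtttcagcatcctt
Chrne: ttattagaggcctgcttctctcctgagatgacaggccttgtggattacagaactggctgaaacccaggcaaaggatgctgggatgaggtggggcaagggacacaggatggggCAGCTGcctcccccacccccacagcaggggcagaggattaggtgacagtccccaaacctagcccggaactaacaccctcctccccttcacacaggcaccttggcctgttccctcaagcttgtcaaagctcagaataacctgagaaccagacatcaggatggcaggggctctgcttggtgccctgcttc
CAGCTG began at bases -224 in Myl1, -87 in Mybpc1 and -138 in Chrne, counted from the start of the gene, and no matches overlapped. TATAAA and the MEF2 site YTAWWWWTAR (Y for C or T, W for A or T, R for A or G) were searched as well. Of these, TATAAA in Myl1 was the only match. Myf6, a robust rise described below, had no promoter to search. The promoter of Ldhb, a robust rise of the creatine kinase and glycolysis list, was searched too and held no CAGCTG. It stood in 60% of 10 promoters of the junction list, 53.3% of 15 thin filament and 40% of 15 myosin promoters. The calcium handling list had it in 42.9% of 14, creatine kinase and glycolysis in 42.1% of 19 and the Z-disc list in 38.9% of 18. Other muscle lists had less, with 6.67% of 15 dystrophin complex, 13.3% of 15 myogenic regulator and 12.5% of 8 channel promoters. High shares were not limited to muscle lists. Serum and growth response had 36.4% of 11, fusion, cadherins and integrins 35.7% of 14 and chromatin 29% of 31. The share was 15% of compared genes and 16.1% of all promoters. Of all genes that rose 16.5% held it, and of all that fell 9.4%.

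Genes of calcium release and storage were modestly higher, 16 of 22 with a ratio above 0, 1 risen, 0 fallen and a median of 0.23 (0.03 to 0.31). Smpx, a small muscle protein that was listed with this group, rose from 12.9 ± 1.32 to 44.4 ± 6.71 FPKM but not over the union of exons. Hrc, the histidine-rich calcium binding protein of the reticulum, had 109 ± 1.75 and 215 ± 3.77 FPKM, and Casq1, fast calsequestrin, 52.3 ± 1.49 and 99.5 ± 2.9. Atp2a1, the fast calcium pump, had 771 ± 13.4 and 1030.2 ± 22.2. Of the dystrophin complex and membrane repair genes 0 rose and 1 fell among 20. The fall was Dag1, dystroglycan, from 53.9 ± 7.4 to 24.7 ± 6.42 FPKM, which was lost by every other gene measure. Bin1, which shapes T-tubules, had 448 ± 14.9 and 679 ± 48.8 FPKM. None of 15 channel and ion transport genes passed the rule, among them Scn4a, the adult muscle sodium channel, at 7.32 ± 0.69 and 11 ± 0.469.

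Of the myogenic regulators and their partners 1 of 22 rose (4.55%, against 2.84% of all genes) and 0 fell. The median was 0.04 and changed sign over the settings. Myf6, also called MRF4, the factor most tied to mature muscle (chromosome 10, 106930097 to 106931816), rose robustly from 2.83 ± 0.463 to 11.8 ± 1.37 FPKM, had 27 ± 1.48 FPKM at 168 h and no value in growth. Myod1, the determination factor, had 193 ± 3.86 FPKM in growth, 215 ± 3.1 at 60 h, 134 ± 3.44 at 120 h and 86.1 ± 2.06 at 168 h, and its 120 h level was lower than that at 60 h without passing the rule. Mef2d and Mef2c, partners of these factors, had 33.2 and 20.9 FPKM at 60 h and 64.8 and 32.1 at 120 h. Among inhibitors of differentiation, 20 of 22 had a ratio below 0 and none passed the rule, with a median of -0.23 (-0.46 to -0.07). Twist2, Hes1 and Id3 had 8.02, 14.2 and 9.59 FPKM at 60 h and 4.08, 8.29 and 6.36 at 120 h. Id3 had 534 ± 8.31 FPKM in growth, so most of its difference preceded 60 h.

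Creatine kinase, myoglobin and glycolysis made the list with the highest median of those shown in the plot of gene lists. Of 21 members with both values 5 rose, 0 fell and 20 had a ratio above 0, with a median of 0.69 (0.48 to 0.73 over the settings). Ldhb, the lactate dehydrogenase of oxidative tissue, rose robustly from 4.97 ± 0.675 to 12.7 ± 1.47 FPKM and had 27.1 ± 3.51 FPKM at 168 h, with 23.5% of its words in other genes. Pgam2, muscle phosphoglycerate mutase, rose from 53.8 ± 1.14 to 189 ± 4.44 FPKM, but not over the union of exons. Ckmt2, the mitochondrial creatine kinase of striated muscle, rose from 12.4 ± 0.841 to 26.4 ± 3.5 FPKM, and Mb, myoglobin, from 308 ± 3.49 to 621 ± 9.73 FPKM. Eno1, the widely expressed enolase, rose from 127 ± 2.69 to 274 ± 11 FPKM, and 70% of its words occur in other genes. The calls of Ckmt2, Mb and Eno1 were each lost under at least 1 scaling. Aldoa and Pkm, 2 highly expressed glycolytic genes, had 1277 and 765 FPKM at 60 h and 2263 and 1490.3 at 120 h.

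Respiratory chain genes were mostly higher, and so were short transcripts in general. Of 36 genes of complexes I to III 3 rose (8.33%) and 0 fell, with a median of 0.35 (0.17 to 0.36). Of 21 genes of cytochrome oxidase and ATP synthase 3 rose (14.3%) and 0 fell, with a median of 0.46 (0.28 to 0.49). Over all genes 2.84% rose. The 3 of complexes I to III were Ndufa13, Uqcrh and Ndufs3. Ndufa13, a subunit of complex I, rose from 99.1 ± 2.53 to 376 ± 11 FPKM, and Uqcrh, of complex III, went from 72.4 ± 3.31 to 242 ± 18.8 FPKM, both losing the call over the union of exons. Ndufs3, a core subunit, rose from 21.2 ± 1.73 to 56.9 ± 6.83 FPKM, but not by the sum or the union. Ndufa3, a complex I subunit that was not on the list, rose from 48.2 ± 1.57 to 209.9 ± 8.57 FPKM, again not over the union. In the second list Cox7b, a small cytochrome oxidase subunit, rose robustly from 65.2 ± 10.3 to 185 ± 9.55 FPKM, and Cox5b rose from 16.2 ± 1.6 to 91 ± 6.19 FPKM and Atp5d from 338 ± 4.34 to 697 ± 11 FPKM, neither robustly. Atp5k, an ATP synthase subunit that was not on the list, rose robustly from 33.2 ± 2.94 to 130.2 ± 11.1 FPKM and had 47.4 ± 3.93 FPKM at 168 h. Atp5b, the catalytic subunit, had 1209 ± 17.1 and 1326 ± 26.1 FPKM.

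Over all genes whose longest annotated transcript had at most 1000 bases, the median ratio was 0.23, and 46 of 465 rose (9.89%). The median was 0.08 between 1000 and 2000 bases, 0.02 between 2000 and 4000, and -0.01 above 4000. Across the 10949 genes, which are not independent replicates, Spearman's rho between length and ratio was -0.12, given as a description. The cytochrome oxidase and ATP synthase list had a median transcript of 865 bases and the list of complexes I to III 1404. After the median of genes of like length was taken off, an alternative chosen after seeing the data, their medians were 0.31 and 0.27, and the part of length in these rises was not tested further. Against the same 60 h library, the 168 h library had medians of 0.11 for the shortest class and -0.06 for the longest.

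**Figure D5:**
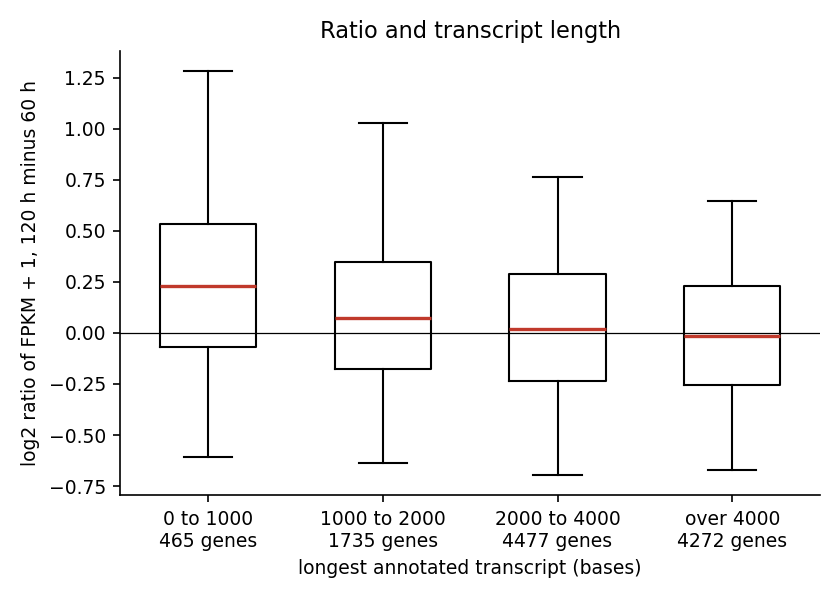
Ratio of FPKM + 1 (y axis, log2, 120 h minus 60 h) by length of the longest annotated transcript (x axis), with boxes at the quartiles, red lines at the medians and whiskers at the 5th and 95th percentiles of genes. The median falls from 0.23 in the 465 shortest genes to -0.01 in the 4272 longest.

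Genes for the use of fatty acids included some of the larger rises. Of 36 members of the citric acid cycle and fatty acid list 3 rose and 0 fell (median 0.31, 0.15 to 0.33). The rises were 8.33% of the list, against 2.84% of all genes. Lpl, lipoprotein lipase, which frees fatty acids for uptake (chromosome 8, 71404504 to 71429213), had 0.725 ± 0.421 FPKM in growth, 2.83 ± 0.314 at 60 h, 17.5 ± 1.17 at 120 h and 42.5 ± 1.28 at 168 h. Each later library was higher (ratio of 120 h to 60 h 2.27), and all 9 introns carried the same level within the 60 h and the 120 h library. Fabp3, the fatty acid carrier of muscle and heart, rose from 1.94 ± 0.676 to 13.2 ± 1.16 FPKM, on 1 of 1 shared intron and with 32.3% of words in other genes. Both were robust. Cs, citrate synthase, rose from 80.3 ± 1.67 to 166 ± 3.07 FPKM, but not over the union of exons or at equal totals, and had 99.1 ± 1.59 at 168 h. Slc2a4, the insulin-regulated glucose transporter, had 8.09 ± 0.506 and 14.4 ± 0.956 FPKM, and Acadvl, which oxidises long chains, 45.2 ± 1.08 and 83.2 ± 2.51.

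Genes of lipid synthesis and of the amino acid response were mostly lower. In cholesterol and fatty acid synthesis 25 of 32 had a ratio below 0, 2 rose and 2 fell, and the median was -0.30 (-0.46 to -0.18). Msmo1, a sterol oxidase, fell robustly from 52.3 ± 1.53 to 24.3 ± 1.47 FPKM. Acaca, acetyl-CoA carboxylase, fell from 20.6 ± 1.18 to 7.11 ± 2.53 FPKM, a call lost by every other gene measure, and Fdps and Me1, with rises from 25 ± 3.76 to 68.5 ± 3.76 FPKM and from 7.87 ± 1.48 to 18.2 ± 2.58 FPKM, lost theirs by the sum and the union. Scd2, a fatty acid desaturase, had 782 ± 9.79 FPKM at 60 h and 476 ± 4.5 at 120 h. In the amino acid stress, serine synthesis and tRNA synthetase list 28 of 35 were below 0, 1 rose and 1 fell, with a median of -0.30 (-0.49 to -0.30). Slc7a11, the cystine importer, fell robustly from 4.75 ± 0.297 to 1.15 ± 0.32 FPKM. Phgdh, of serine synthesis, rose from 51.7 ± 2.24 to 108 ± 9.7 FPKM, but not over the union of exons, and 59.5% of its words occur in other genes. Atf5, a transcription factor of this response, had 407 ± 4.38 and 279 ± 5.27 FPKM, and Atf4 629 ± 5.25 and 642 ± 8.59. Of 33 genes of folding in the endoplasmic reticulum none passed the rule.

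Cytoplasmic ribosomal protein genes gave large ratios that are uncertain because near-identical copies share their sequence. Of 41 listed only 16 had both values, and 7 of those rose and 0 fell (median 0.90). Rpl30 had 5.93 ± 1.9 and 176 ± 8.0 FPKM and Rpl7 19.8 ± 1.17 and 101 ± 5.25. Rps3, with 5.56% of its words shared, had 1294 FPKM at 60 h and 1627 at 120 h. Without genes that share words 3 members were left, 0 rose and the median was 0.15. Proteasome subunits had 4 rises in 34 and a median of 0.03 that changed sign over the settings. These were Psmb3 from 9.58 ± 3.94 to 69 ± 6.06 FPKM, Psma5 from 5.03 ± 1.05 to 18.6 ± 3.75 FPKM, Psmd11 from 4.16 ± 0.713 to 13.2 ± 3.77 FPKM and Psma3 from 4.11 ± 1.12 to 10.5 ± 2.58 FPKM, of which Psma5 alone was robust, on 1 of 1 shared intron and with 56.2% of its words in other genes. All 4 share at least 5% of their words with other genes, and without genes that share words 26 members were left, with 0 rises. Mitochondrial ribosomal proteins had 2 rises in 37, Mrps10 from 7.11 ± 0.67 to 18.8 ± 2.98 FPKM and Mrpl16 from 15.6 ± 0.69 to 36.2 ± 2.25 FPKM, neither robust.

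In the lysosome and autophagy list 2 of 38 rose and 0 fell (median 0.21, 0.03 to 0.26). Bnip3, a mitophagy receptor induced by low oxygen, rose robustly from 0.973 ± 0.246 to 8.28 ± 1.18 FPKM, on 1 of 1 shared intron. Map1lc3a, an autophagosome protein, rose from 168 ± 5.75 to 369 ± 17 FPKM, but not over the union of exons or at equal totals. Ctsd and Ctsl, cathepsins, had 575 and 563 FPKM at 60 h and 828 and 758 at 120 h. Of the muscle ubiquitin ligases and Foxo factors none of 19 passed, with Trim63, the ligase MuRF1, at 25.3 ± 1.38 and 46.1 ± 2.77. Hspb7, a small heat shock protein of striated muscle, rose robustly from 29.3 ± 1.12 to 71.2 ± 2.47 FPKM, the only rise in 22 chaperone genes, while Hspb8 had 94.9 ± 2.04 and 187 ± 4.13 FPKM. Ankrd37, another gene induced by low oxygen, rose robustly from 2.08 ± 0.373 to 7.9 ± 1.3 FPKM and was back at 2.04 ± 0.416 at 168 h.

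Each list of growth factor and matrix genes held few calls. Igfbp2, a binding protein of insulin-like growth factors (chromosome 1, 72871030 to 72899035), had 129 ± 3.69 FPKM in growth, 40.5 ± 1.58 at 60 h, 12.3 ± 1.56 at 120 h and 9.98 ± 1.66 at 168 h, and its fall from 60 h to 120 h was robust. Igfbp3 rose from 1.7 ± 0.27 to 4.58 ± 1.04 FPKM, but not over the union of exons or at equal totals. Igf2, the growth factor itself, had 167 ± 1.93 and 301 ± 3.64 FPKM, with 75.9% of its words in another annotated gene, and H19, the imprinted RNA beside it, 9152 ± 94.8 and 12442 ± 163. Of 18 genes in this list 1 rose (5.56%, against 2.84% of all genes) and 2 fell (11.1%, against 1.45%). The other fall was Cdkn1c. Of 19 serum and growth response genes 2 rose (10.5%), Ankrd37 and Hmga1, and 1 fell (5.26%). The fall was Ccn2, a matrix-associated growth factor, from 4.96 ± 0.464 to 1.51 ± 0.406 FPKM, a call lost by the sum, and Hmga1 rose from 12.2 ± 3.58 to 42.2 ± 11.3 FPKM, but not by the sum or the union and with 69.6% of its words in other genes.

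Thbs1, thrombospondin, which activates latent TGF-beta (chromosome 2, 117937627 to 117952762), rose robustly from 44.7 ± 3.14 to 113 ± 7.82 FPKM and had 111 ± 6.63 FPKM in growth and 136 ± 6.26 at 168 h, so that 60 h was the lowest of the 4 libraries. Ltbp1, which binds latent TGF-beta, rose from 2.34 ± 0.586 to 13.1 ± 2.26 FPKM, but not over introns shared by both libraries. These were the 2 rises in 26 genes of TGF-beta, activin and BMP signalling (7.69%, against 2.84% of all genes), with 0 falls. Of 29 collagen genes and their partners none passed, with a median of 0.26 (0.08 to 0.27). Col3a1, the fibrillar type III chain, had 427 ± 9.66 and 760.5 ± 15.7 FPKM and 50 of 50 introns higher at 120 h, and Serpinh1, the collagen chaperone, 972 ± 5.81 and 696 ± 39.3. Dcn, decorin, a small proteoglycan on collagen fibrils (chromosome 10, 96942207 to 96980765), rose robustly from 9.04 ± 0.649 to 27.1 ± 1.57 FPKM, had 57.7 ± 3.48 FPKM at 168 h and no value in growth. Ogn, a related proteoglycan, fell from 10.4 ± 0.567 to 3.83 ± 0.531 FPKM, but not by the sum or the union. Vwa1, a matrix protein of basement membranes, rose robustly from 2.45 ± 0.266 to 13.3 ± 0.968 FPKM. Of 27 fusion, cadherin and integrin genes none passed, and Mymk, the fusion protein myomaker, had 816 ± 12.1 and 1027 ± 10.6 FPKM.

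Several RNA-binding and chromatin genes were lower through the introns. Of 24 SR and hnRNP genes 1 rose and 3 fell, with a median of -0.28 (-0.65 to -0.28). Hnrnpu, a scaffold of nuclear RNA, fell robustly from 53.8 ± 1.1 to 24.9 ± 1.1 FPKM, and Hnrnpd, also called AUF1, from 25.8 ± 1.88 to 11.5 ± 3.06 FPKM. Hnrnpk fell from 34.3 ± 2.7 to 7.99 ± 1.09 FPKM, a call lost by every other gene measure, and Srsf10 rose from 1.79 ± 0.228 to 5.05 ± 1.51 FPKM, a call lost by the sum, the union and equal totals. Luc7l3 and Luc7l, relatives of a U1 snRNP protein of yeast, fell from 12.9 ± 1.79 to 2.64 ± 0.763 FPKM and from 14.1 ± 0.865 to 5.01 ± 1.19 FPKM, the first not by the sum and the second not over the union. Rbfox1, a splicing regulator of muscle and brain, rose from 3.01 ± 0.274 to 8.75 ± 2.14 FPKM, but not by the sum or the union. Nop58 and Dkc1, proteins of small nucleolar RNPs, fell from 22.7 ± 1.02 to 6.92 ± 0.843 FPKM and from 7.1 ± 0.482 to 2.71 ± 0.869 FPKM, Dkc1 robustly. Of 35 chromatin genes 3 fell (8.57%, against 1.45% of all genes) and 0 rose. Suz12 and Bmi1, of the Polycomb complexes, fell from 5.47 ± 0.379 to 2.1 ± 1.33 FPKM and from 3.93 ± 0.482 to 1.04 ± 0.932 FPKM, and Hmgb2 from 11.1 ± 1.72 to 4.22 ± 1.5 FPKM, none robustly. The median of -0.23 changed sign over the settings (-0.38 to 0.07), and summing FPKM over transcripts gave 5 rises and 0 falls. Ezh2, the Polycomb methyltransferase, had 9.53 ± 1.8 and 5.3 ± 0.67 FPKM.

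Several of the largest ratios stood outside these groups. Among protein-coding genes at 10 FPKM or more, with at least 3 shared introns and under 5% of words in other genes, Fam222b had the largest rise, from 2.21 ± 0.463 to 21.4 ± 4.43 FPKM, on 3 of 3 introns, but not over the union of exons, and had 6.15 ± 0.656 at 168 h. Selenom, a selenoprotein of the endoplasmic reticulum, rose from 20.5 ± 0.655 to 134 ± 5.18 FPKM and stayed at 179 ± 4.44 at 168 h, again not over the union. Dbp, a clock-controlled transcription factor, rose from 6.2 ± 1.05 to 33.4 ± 2.1 FPKM and had 11.3 ± 1.73 at 168 h, while Per1, a core clock gene, had 5.58 ± 1.33 and 9.16 ± 0.57 and Arntl 8.11 ± 1.75 and 4.43 ± 0.789. Dbp was the only riser among 15 clock genes, and its call too was lost over the union. Cnih4, a cargo receptor of secretion, rose from 21.8 ± 0.737 to 83.6 ± 4.62 FPKM, Mllt3, a reader of acylated histones, from 3.05 ± 0.64 to 13.5 ± 2.2 FPKM, and Mafg, a small Maf factor, from 5.86 ± 3.22 to 23.6 ± 1.99 FPKM, none of them over the union. Akt1s1, Prdm2, Mia2 and Ppil3, with ratios of -1.65, -1.62, -1.59 and -1.27, fell through the introns, and none of the 4 did so by the sum or over the union.

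A pair of the largest falls came from transcripts that also held another gene. Eml3, a microtubule-binding protein, fell from 29.7 ± 0.61 to 7.46 ± 1.37 FPKM, and Thoc6, a subunit of the mRNA export complex THO, from 47.9 ± 1.41 to 15.5 ± 1.71 FPKM, both robustly by the rule. At 60 h, however, all of their FPKM sat in assembled transcripts that also held introns of a neighbour, Mta2 for Eml3 and Tnfrsf12a for Thoc6, and at 120 h none did. Such genes, with at least 50% of the FPKM in shared transcripts in either library, numbered 65 (0.594%), with 7 rises and 5 falls. Over all genes 2.84% rose and 1.45% fell, so calls were more frequent among these. Part of the Eml3 and Thoc6 differences therefore cannot be told apart from the neighbour's level.

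Markers of other cell types were mostly scarce. The sums below cover members with both values and leave out those in 1 library only. At 60 h only there were 3 macrophage and endothelial, 2 nerve and glial, 2 bone and cartilage, 1 cardiac and 3 fibroblast markers. At 120 h only there were 1 macrophage and endothelial, 2 adipocyte and 1 cardiac marker. Of 15 macrophage and endothelial markers 3 had both values, summing to 1.86 FPKM at 60 h and 3.55 at 120 h, and Ptprc, Adgre1, Pecam1 and Kdr had none in either. Of 14 nerve and glial markers 3 had both, summing to 51.5 and 28.7 FPKM, nearly all of it Tubb3 at 48.4 and 24.7, while Rbfox3, Syt1 and Sox10 had none. Of 14 adipocyte markers 5 had both (21.8 and 42.9 FPKM), with Lpl, which muscle also expresses, the only rise, and Adipoq, Plin1 and Cebpa without a value. Cardiac markers with both values summed to 27 and 43.1 FPKM over 5 of 15, with Nppa, Myl7 and Tbx5 absent from both libraries. Bone and cartilage markers had 3 of 14 with both values, summing to 313 and 372 FPKM, mostly Spp1 at 298 and 358. Fibroblast and reserve cell markers were the most abundant of these lists, the smooth muscle list described above being left aside, 17 of 23 with both values and 2014 and 2837 FPKM, of which Dcn alone rose. Ly6a had 130.3 ± 17.6 and 235 ± 7.55 FPKM, Pdgfrb 23.5 ± 2.51 and 15.6 ± 1.4, and Myf5 9.41 ± 0.792 and 12.6 ± 1.31. The part of such cells in the falls and rises above was not tested.

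Genes present in 1 library only were mostly weak. The 981 with a value at 60 h only had a median of 0.734 FPKM, and 512 of them (52.2%) would have had under 10 fragments at 120 h if the level had stayed the same. The 367 with a value at 120 h only had a median of 1.15 FPKM, and 125 (34.1%) would have had under 10 fragments at 60 h. Many rested on 1 intron, 463 of the 981 and 224 of the 367. Strong genes were missing as well: 58 of the 981 and 12 of the 367 had at least 10 FPKM and 3 introns. Some were missing far above that depth. Tnnt3, fast troponin T (chromosome 7, 149684599 to 149688806), had 153 ± 5.52 FPKM at 60 h and 143 ± 6.44 at 168 h, and its 60 h level corresponds to 1564 fragments at 120 h. In that span the 120 h library held 2 unspliced transcripts with 125 fragments. Ndufs7, a complex I subunit, had 135 ± 3.33 FPKM at 60 h and 272 ± 5.28 at 168 h, and 19 fragments in its span at 120 h. Tnfaip2, Ccdc124 and Tpst2, at 98.6, 105 and 49.4 FPKM at 60 h, had no transcript at all in their spans at 120 h. In the other direction Ndufa5, Snrpc and Bsdc1 had 93.9, 52.3 and 22.3 FPKM at 120 h and no transcript in their spans at 60 h, and Med24 and Prpf40b had 22.8 and 22.5 FPKM at 120 h and no value at 60 h. Absence of a gene from 1 of these files is thus not read as absence of its RNA.

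The choice of intron at shared splice sites also differed between the libraries. Of 2372 genes with at least 2 introns meeting at a donor or acceptor that carried 5 FPKM in both libraries, 553 (23.3%) had an intron whose share differed by at least 30 percentage points with intervals apart. That number fell to 236 at 50 points and to 334 at 10 FPKM. Of the 553 genes, 37 also passed the rule for level. Over all 10949 genes 2.84% rose and 1.45% fell. The share past that rule among the 2372 genes was not computed, so no overlap is read from this count. In Prkag1, an AMP kinase subunit, the intron at chromosome 15, 98656165 to 98661317 took 5.79% of its acceptor at 60 h and 100% at 120 h. In Iscu, the iron-sulfur cluster scaffold, the intron at chromosome 5, 114222954 to 114224271 took 8.7% and 100%, and 100% in both other libraries. In Prkcsh, a glucosidase subunit, an intron took 100% at 60 h and 9.3% at 120 h, against another whose end lay 21 bases away. Shares at or near 0 or 100% depend on which transcripts were assembled, and 41 of the called genes went from 0 to 100% or back. A share of 0 or 100% carries a distance of 0, so the rule on intervals could not fail for such a change. The introns named above had smaller changes than these.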

How the data were processed

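The authors deposited, for each library, assembled transcripts with a RPKM value and its confidence limits, per the file headers and line attributes, which name Cufflinks as their source. The submitters' processing notes list TopHat 1.0.13 and Cufflinks 0.8.0 without saying what each did. The sources used here do not name the genome build, so positions of assembled genes are those of the files. Each value counts fragments, so it is called FPKM here. Per the labels' protocols, poly(A) RNA was broken by heat and metal ions and primed at random, with no marking of strand, so where 2 genes overlap on opposite strands their fragments cannot be told apart.

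Genes were named from GENCODE M21 (GRCm38) by runs of intron and exon lengths alone, with no use of coordinates. Such runs gave a name to 122433 of 137305 introns, and the length of a single intron flanked by named ones did so for 5193 more, with a chance rate of 2.37%. Genes without introns were not analysed here. Library sizes were read from the limits, which lie 2 square roots of a fragment count from each value in genes with 1 transcript. The median distance to the limit was 9.97% of a gene's value at 60 h and 13.8% at 120 h. Near-identical copies were sought as words of 50 bases shared with other annotated genes.

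Genes were named in the text where they were protein-coding, past the rule, at 10 FPKM or more, with at least 3 shared introns and under 5% of words shared (the 15 largest ratios each way), or had the 4 largest ratios or 2 highest levels of a list, or the 5 highest levels among genes of 1 library. Members of the mitosis and sarcomere lists beyond these, the smooth muscle and fibroblast markers, and Mb, Tagln, Igfbp3, Ccn2, Slc7a11, Bmi1, Rapsn and Tap1 were named after their values were seen. A few genes that met these rules are not reported here. The comparison, its members and the 45 gene lists were chosen with earlier results of these data known. Python 3.11.15, pandas 2.3.3 and numpy 2.4.6 were used.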

Additional observations from a re-analysis of the deposited data

How the results depend on the processing

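With 1 library per time point, no value here has a replicate check. No paired analysis was possible because the time points share no replicate beyond the single library of each. Against 311 higher and 159 lower genes, the sum over transcripts gave 1377 and 242, the union of exons 142 and 383, equal totals 192 and 257, missing genes taken as 0 514 and 551, and the 4-fold rule 31 and 6. A pseudocount of 0.1 FPKM gave 439 and 277, and at least 3 introns in both libraries 183 and 119. No minimum, a minimum of 5 FPKM, no rule on intervals, median-ratio scaling, shared introns only, removal of genes that share words and, chosen after seeing the data, length-centred ratios and removal of shared transcripts each kept both counts within 1.5 times. The union turned 5 rises into falls and 0 falls into rises, and the sum 4 and 7. The cause was not tested. A sum counts a gene assembled in pieces more than once, and whether these genes were so assembled was not examined. Of genes in 1 library, 153 at 60 h and 49 at 120 h had at least 5 FPKM. Splice choices numbered 334 at 10 FPKM and 236 at 50 points, against 553. Of 45 lists, 25 kept the sign of their median over 16 settings and 20 did not. Depth limits the 120 h library most: low genes missing there may lie under its reach.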

Other observations

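Interferon response genes differed little between the libraries. Of 19 members with both values 1 rose, Tap1, a peptide transporter of antigen presentation, from 0.604 ± 0.178 to 2.22 ± 0.552 FPKM (not over the union of exons or at equal totals), and 0 fell, and the median of 0.09 changed sign over the settings. Ifitm3 had 591 ± 8.07 FPKM at 60 h and 582 ± 11.1 at 120 h, and Bst2 18.4 ± 1.43 and 21.1 ± 2.13, followed by 63.8 ± 2.81 at 168 h. Calr, the calcium-binding chaperone of the endoplasmic reticulum, had 314 ± 3.71 and 316 ± 5.22 FPKM. Pdia3, a disulfide isomerase of the same compartment, had 115 ± 2.21 and 70.8 ± 2.48, while P4hb, another, had 335 ± 3.25 and 409.9 ± 5.08. Of the genes named in this paragraph, Tap1 alone passed the size rule.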
